A study of Homo sapiens with 4 samples.

Results

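The genes followed here mark the epithelial to mesenchymal transition (EMT) and were measured in MDA-LM2 cells after knockdown of the transcription factor SOX4. They are the transcription factors ZEB1, ZEB2, SNAI1, SNAI2, TWIST1, TWIST2 and PRRX1, the intermediate filament protein gene VIM and the cadherin genes CDH1 and CDH2. Members were taken by name, with every probe annotated to them, which gave 14 probes for 10 of the 20046 annotated genes. Of these, 7 probes, covering 5 of the 11389 genes tested, were kept for testing, meaning that their detection p-value was under 0.05 on at least 2 of the 4 arrays.

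MDA-LM2 cells descend from MDA-MB-231, an established human line of triple-negative breast cancer, by selection for growth in the lungs of mice. The siSOX4 group (2 arrays) received siRNA against SOX4 and the siControl group (2 arrays) a control siRNA, both by lipofection, and total RNA was taken 48 h later and measured on Illumina expression BeadChips. The study used 2 siRNAs against SOX4, and the labels do not say which siRNA each sample received. Whether the samples within a group are separate cultures is not stated, and the spread behind each p-value may therefore be technical. All samples are transfected cells of 1 line, and fewer cells with a transcript and less of it per cell cannot be told apart.

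In EMT, epithelial cells lose the junctions that tie them to their neighbours and take on the shape and movement of mesenchymal cells. The ZEB, SNAIL and TWIST factors drive this by repressing epithelial genes, the E-cadherin gene CDH1 above all, and ZEB and SNAIL proteins bind E-box sequences in such promoters. N-cadherin, encoded by CDH2, and vimentin, encoded by VIM, are the proteins most used to mark the mesenchymal state. MDA-MB-231 is a line known for vimentin and for the near absence of E-cadherin. SOX4 is an HMG-box factor of the SoxC group that has been tied to EMT in breast epithelial cells.

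Between 18609 and 20292 of 47323 probes were detected per array, and all tested member probes were detected on every array. The siSOX4 arrays lay further from each other than the controls, with an SD of the log2 difference of 0.43 against 0.26 over the kept probes. SOX4 itself, the target of the siRNA, had intensities of 206 and 193 in siSOX4 samples 1 and 2, against 253 and 239 in siControl samples 1 and 2. Both siSOX4 values lay below both controls, and the difference of -0.35 ± 0.19 log2 units did not pass an adjusted p under 0.05 (SE, n = 2 per group, adjusted p = 0.487 by Benjamini-Hochberg over 20118 probes, limma). The markers CD44 and VIM were detected on every array, as were the luminal markers KRT8, KRT18 and ERBB2, while the luminal markers ESR1, PGR and FOXA1 had no kept probe. Intensities, as multiples of the mean of the negative controls, were summed over all probes of a list. A probe at background thus adds about 1. Over the 13 probes of 8 luminal genes the sums were 27.2 and 28.5 in siSOX4 samples and 25.2 and 26.9 in siControl samples. Over the 16 probes of 7 immune genes they were 47.6 and 59.0 in siSOX4 samples and 58.8 and 54.3 in siControl samples. Of these, the brightest CD68 probe gave 24.4 and 33.9 in siSOX4 samples and 34.3 and 30.9 in siControl samples. Over the 16 probes of 10 endothelial and fibroblast genes the sums were 21.0 and 24.0 in siSOX4 samples and 19.6 and 21.0 in siControl samples. PTPRC, CD3E, HBB, CDH5, KDR, VWF, PDGFRA and DCN had no kept probe. Of the genes tested from these lists, MUC1 differed by 0.60 ± 0.43 (0.0013 without siControl sample 1 and 0.12 without siSOX4 sample 2), ERBB2 by -0.34 ± 0.28 (0.08 without siSOX4 sample 1), LYZ by -0.25 ± 0.32 (0.21 without siSOX4 sample 2), MS4A1 by -0.21 ± 0.21, CD14 by 0.14 ± 0.28 (-0.22 without siSOX4 sample 1), PECAM1 by 0.63 ± 0.25 (0.34 without background correction) and COL1A1 by 0.45 ± 0.24 log2 units (0.17 without siSOX4 sample 2). PDGFRB was detected on both siSOX4 arrays and on neither control and was at least 1.73-fold higher on the background-corrected scale (adjusted p = 0.152, limma), a bound that does not hold without background correction (0.68 log2 units). The part of other cell types in the results was not tested.

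The members fell into a detected and an undetected set. Signals of VIM, SNAI2, ZEB2, ZEB1 and PRRX1 were above the negative controls in every sample, each by at least 1 probe. For SNAI1, TWIST2, CDH1 and CDH2, 0 of 16 array values were detected, with detection p-values between 0.229 and 0.873. The 7 probes that were not kept had intensities between 0.791 and 1.38 times the mean of the negative controls inferred from the detection p-values. In the plot of signal by probe these points lie along the line at 1, in siSOX4 and siControl samples alike.

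**Figure D1:**
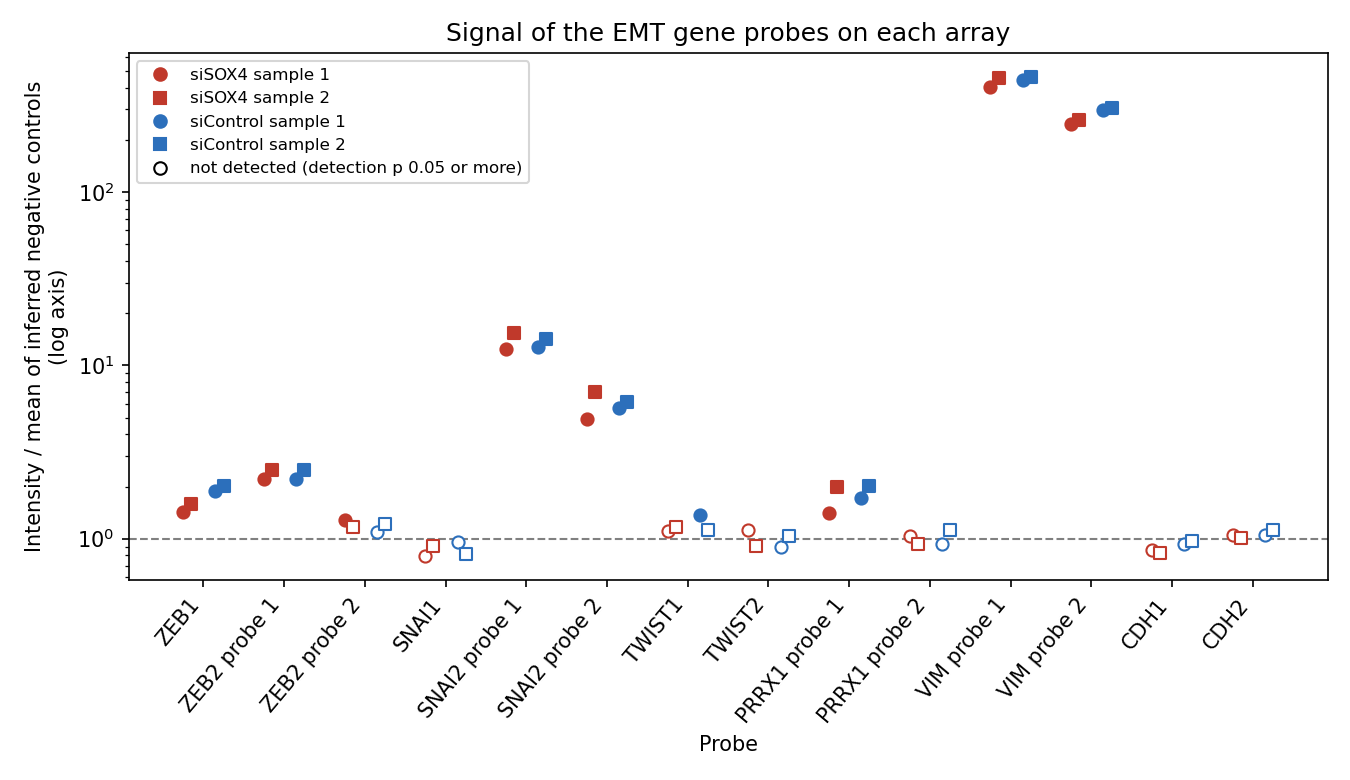
Intensity of each of the 14 probes on each array, divided by that array's mean of the inferred negative controls, on a log axis; colours are the groups, shapes the sample numbers, and open symbols array values that were not detected. VIM, SNAI2, ZEB1 and the first probe of ZEB2 and of PRRX1 are detected on every array, while SNAI1, TWIST2, CDH1 and CDH2 are open on all.

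Taking each gene's kept probe of highest mean signal, ZEB1 was the one tested member whose siSOX4 values both lay below both controls. The second VIM probe, of lower signal than the first, had them below as well. ZEB1 encodes a zinc finger and homeodomain repressor of CDH1 and other epithelial genes. Its single probe (ILMN_1762231) had intensities of 98.9 and 102 in siSOX4 samples 1 and 2, against 132 and 134 in siControl samples 1 and 2. These are 1.42 and 1.58 times the negative control mean in siSOX4 samples and 1.88 and 2.01 times in siControl samples. The signal thus lies near background, and the size of the fold depends on the background correction. After background correction and quantile normalization the log2 values were 5.50 and 5.74 in siSOX4 samples and 6.25 and 6.36 in siControl samples. The groups did not overlap, and the distance between them was larger than the distance within either. The difference was -0.68 ± 0.21 log2 units (SE, n = 2 per group), or 1.61-fold lower signal, with a 95% interval from -1.17 to -0.20. It did not pass over all probes tested (unadjusted p = 0.0112, adjusted p = 0.259, limma).

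ZEB1's difference was read against all genes. At an adjusted p under 0.05 there were 0 called genes (0% of 11389) and so 0 of 5 members, while at an unadjusted p under 0.05 ZEB1 was the 1 member of 5 called, against 14.8% of all genes. A difference at or below that of ZEB1 was found in 314 genes (2.76%), and one as large in either direction in 694 genes (6.09%), where 1 of 5 members, ZEB1 itself, reached it by construction. Groups without overlap were found in 1 of 5 members, against 47.7% of all genes. In the authors' deposited table the ratio of siControl to siSOX4 was 1.30 for ZEB1, which is the smaller difference of the signals without background correction. Without that correction the log2 difference was -0.37. It was -0.80 without siSOX4 sample 2 and -0.57 without siSOX4 sample 1. With 1 siSOX4 sample left, the spread rests on the control pair alone.

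ZEB2, the close paralog of ZEB1 that binds the same E-boxes, had overlapping groups. The probe kept for it (ILMN_1688698) had intensities of 155 and 162 in siSOX4 samples 1 and 2, against 155 and 165 in siControl samples 1 and 2. The sample of number 2 was the higher in both groups. The difference was 0.04 ± 0.20 log2 units with a 95% interval from -0.43 to 0.50 (adjusted p = 0.959, limma), which spans signal up to 1.35-fold lower and up to 1.42-fold higher. Its second probe (ILMN_1820767) was detected on siSOX4 sample 1 alone, with a detection p of 0.0468, and was not tested. Without siSOX4 sample 2 the difference was -0.02 and without siControl sample 1 it was -0.06, so its sign rests on single arrays. Whether ZEB1 and ZEB2 differ in their response was not tested.

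The promoters of the ZEB pair are shown because E-boxes are the sites their products bind. A tie between these sequences and the array values was not tested. Of the 10 members, 6 had a window in the RefSeq promoter table (GRCh38.p14, 250 bases before to 50 after a start site), with 7 windows for ZEB1 and 1 for ZEB2. SNAI1, SNAI2, TWIST1 and CDH1 are named here only. Capitals mark the E-box CACCTG, read on both strands, and the core of the SOX recognition sequence, ACAAAG, read on both strands. No base of the printed windows lies in both motifs. For ZEB1 the window with most E-boxes, chosen with the sequences in view, is printed (chr10:31318966-31319265, plus strand), and for ZEB2 the one window (chr2:144520070-144520369, minus strand).
ZEB1: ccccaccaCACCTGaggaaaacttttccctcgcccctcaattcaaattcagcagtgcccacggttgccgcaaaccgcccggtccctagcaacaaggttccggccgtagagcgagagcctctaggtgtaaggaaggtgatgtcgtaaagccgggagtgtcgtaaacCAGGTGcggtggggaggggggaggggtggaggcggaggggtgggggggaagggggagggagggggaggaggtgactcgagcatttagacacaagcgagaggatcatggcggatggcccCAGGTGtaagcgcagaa
ZEB2: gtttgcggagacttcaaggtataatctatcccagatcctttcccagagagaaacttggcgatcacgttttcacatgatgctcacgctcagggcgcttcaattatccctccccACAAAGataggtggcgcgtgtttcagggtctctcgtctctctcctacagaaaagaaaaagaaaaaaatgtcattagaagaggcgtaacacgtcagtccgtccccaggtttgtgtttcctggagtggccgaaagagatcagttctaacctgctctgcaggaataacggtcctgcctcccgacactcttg

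The printed ZEB1 window held 3 E-boxes and 0 SOX cores, and the ZEB2 window 0 E-boxes and 1 SOX core. Of the 7 ZEB1 windows, 2 held an E-box and 0 the SOX core. Over all 35116 windows of 300 bases, 20.6% held the E-box and 16.1% the SOX core. The matches are letters in a reference sequence, and binding was not measured here.

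Of the SNAIL pair, SNAI2 (Slug, a zinc finger repressor of CDH1) was detected and SNAI1 (Snail) was not. The SNAI2 probe of higher signal (ILMN_2082585) had intensities of 860.2 and 990.4 in siSOX4 samples 1 and 2, against 890.0 and 941.5 in siControl samples 1 and 2. The siSOX4 samples lay on either side of the controls, and after normalization sample 1 lay between them and sample 2 above. The difference was 0.07 ± 0.16 log2 units with a 95% interval from -0.30 to 0.44 (adjusted p = 0.895, limma). The other SNAI2 probe (ILMN_1655740) had 342 and 455 in siSOX4 samples and 398 and 409 in siControl samples. It gave 0.03 ± 0.20 log2 units (interval -0.42 to 0.49, adjusted p = 0.959, limma), also with siSOX4 samples on either side of the controls, and its sign turned to -0.01 with median centring in place of quantile normalization. Without siSOX4 sample 2 the probes gave -0.01 and -0.16. The SNAI1 probe had 55.0 and 58.5 in siSOX4 samples and 67.3 and 54.4 in siControl samples, all below the mean of the negative controls.

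TWIST1 and TWIST2, basic helix-loop-helix factors of mesoderm and EMT, were at or near the negative controls. TWIST1 had intensities of 76.6 and 75.9 in siSOX4 samples 1 and 2, against 96.4 and 75.1 in siControl samples 1 and 2. The siSOX4 samples and siControl sample 2 lay together, and siControl sample 1 was the one array on which it was detected. The detection p there was 0.0234, against 0.138 to 0.283 elsewhere. TWIST2 had 78.5 and 58.9 in siSOX4 samples and 62.7 and 68.8 in siControl samples, with none detected. No fold change is given for either gene, since neither had a kept probe.

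PRRX1, a homeodomain factor of limb and craniofacial mesenchyme that can induce EMT, differed between the siSOX4 samples more than between the groups. Its kept probe (ILMN_1739496) had intensities of 97.5 and 128 in siSOX4 samples 1 and 2, against 120 and 135 in siControl samples 1 and 2. The log2 values were 5.46 and 6.30 in siSOX4 samples and 6.01 and 6.37 in siControl samples, so siSOX4 sample 1 alone was low and the groups overlapped. The siSOX4 samples were 0.85 log2 units apart, a gap reached by 6.01% of all genes tested. The difference was -0.31 ± 0.30 log2 units with a 95% interval from -1.01 to 0.39 (adjusted p = 0.712, limma). It was 0.11 without siSOX4 sample 1 and -0.72 without siSOX4 sample 2, and the low value of siSOX4 sample 1 sets its sign. The second PRRX1 probe (ILMN_1811851) was not detected on any array.

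Vimentin, the cytoskeletal filament protein that marks mesenchymal cells, stood far above the negative controls in all samples. Its brighter probe (ILMN_1782538) had intensities of 27989 and 29421 in siSOX4 samples 1 and 2, against 31150.5 and 30781 in siControl samples 1 and 2. The second probe (ILMN_2058251) had 17191 and 16938 in siSOX4 samples and 20956 and 20332 in siControl samples. Before normalization each probe was thus lower on either siSOX4 array than on either control array, but these intensities are not scaled between arrays. As multiples of the negative control mean, the brighter probe gave 403 and 454 in siSOX4 samples and 445 and 461 in siControl samples, which overlap. The second probe gave 247 and 261 in siSOX4 samples and 299 and 305 in siControl samples, which do not. The highest intensity on any array was between 31943 and 34571, so the brighter probe lies near the top of the scale, and a compression of its differences there was not tested.

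After normalization the brighter VIM probe had overlapping groups, with log2 values of 14.87 and 14.83 in siSOX4 samples and 14.90 and 14.86 in siControl samples. Its difference was -0.03 ± 0.10 log2 units with an interval from -0.25 to 0.20 (adjusted p = 0.939, limma), and it turned to 0.0015 without siControl sample 1. The second probe kept groups that did not overlap, with 14.14 and 14.04 in siSOX4 samples and 14.27 and 14.28 in siControl samples. Its difference was -0.18 ± 0.11 log2 units, or 11.9% less signal, with an interval from -0.43 to 0.06 (adjusted p = 0.513, limma). With median scaling, as in the deposited series matrix, it was -0.25. The interval of the brighter probe reaches to 1.19-fold lower and 1.15-fold higher signal, and that of the second to 1.34-fold lower and 1.04-fold higher.

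CDH1 and CDH2, the epithelial and the neural cadherin whose exchange is the textbook sign of EMT, were each measured by 1 probe and not detected. CDH1 had intensities of 59.9 and 53.8 in siSOX4 samples 1 and 2, against 64.9 and 64.9 in siControl samples 1 and 2. All of these lay below the mean of the negative controls, and the detection p-values ran from 0.556 to 0.840. CDH2 had 72.6 and 65.1 in siSOX4 samples and 73.7 and 74.9 in siControl samples, between 1.00 and 1.12 times the negative control mean. The siSOX4 values of both genes were below the control values, but no level above background is shown in any sample, so no fold is given.

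Over the 7 kept probes, 2 had siSOX4 values below both controls (ZEB1 and the second VIM probe), 0 had them above and 5 had overlapping groups. Of all kept probes, 45.5% had groups that did not overlap. The median difference over the 5 tested members was -0.03 log2 units, against -0.02 over all genes tested, and it was 0.09 without siSOX4 sample 1. In the plot of differences ZEB1 is the one probe of the set whose interval does not cross 0.

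**Figure D2:**
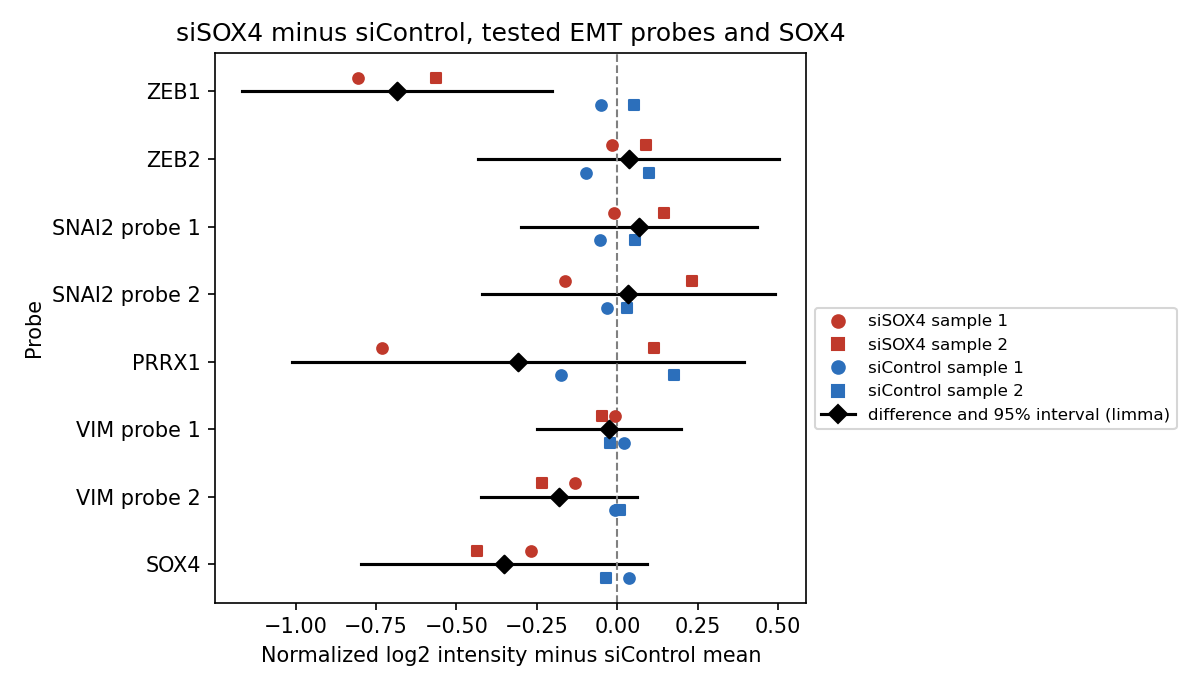
Normalized log2 intensity minus the siControl mean for the 7 kept member probes and SOX4; coloured points are single arrays (siSOX4 above, siControl below the line of each probe), and the diamond and bar are the difference, siSOX4 minus siControl, with its 95% interval from limma (n = 2 per group). ZEB1 is at -0.68 with both siSOX4 samples left of both controls, PRRX1 has siSOX4 samples 0.85 apart, and the remaining EMT probes lie between -0.18 and 0.07.

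The genes with values most like those of ZEB1 were JADE3, NEK3 and ST8SIA4. Likeness was the Euclidean distance over the 4 arrays after each gene's control mean was subtracted, and 11384 genes were compared. ZEB1 lay at -0.81 and -0.56 in siSOX4 samples 1 and 2 and at -0.05 and 0.05 in siControl samples. JADE3, a PHD finger gene, was 0.025 away, the kinase gene NEK3 0.046 and the polysialyltransferase gene ST8SIA4 0.071. With 4 arrays such closeness is a description of these samples only.

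Other genes of the EMT programme were read from lists written by role, and no member of any list passed at an adjusted p under 0.05 (limma), as no gene did. Of the partners and corepressors of ZEB and SNAIL, 12 of 16 were tested, and at an unadjusted p under 0.05 there were 4 higher and 0 lower, against 7.44% of all genes higher and 7.39% lower. Both siSOX4 values lay above both controls for 4 and below them for 6, against 22.7% and 25.1% of all genes, and the median was -0.11. AJUBA, a LIM protein that binds SNAIL, had log2 values of 9.39 and 8.99 in siSOX4 samples and 7.77 and 8.18 in siControl samples. Its groups were well apart, and the difference was 1.22 ± 0.22 (adjusted p = 0.128, limma), which passed without the detection filter (adjusted p = 0.0429). The histone methyltransferase gene EZH2 differed by 0.68 ± 0.25 and the histone demethylase gene KDM1A, a cofactor of SNAI1, by 0.60 ± 0.17. The low side held smaller values, down to -0.34. EZH2 was 0.33 without siSOX4 sample 1.

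Of 16 other EMT transcription factors listed, 8 were tested, with 1 higher and 0 lower at an unadjusted p under 0.05, against 7.44% of all genes higher and 7.39% lower, and a median of 0.14. RUNX2, the bone factor, had 7.38 and 8.06 in siSOX4 samples and 6.90 and 7.17 in siControl samples, a difference of 0.68 ± 0.26. FOXQ1, a forkhead factor, differed by -0.16 ± 0.15 and ETS1 by 0.14 ± 0.15. Among genes for the turnover of SNAIL, TWIST and ZEB proteins, 0 of 10 were called at an unadjusted p under 0.05, against 14.8% of all genes, and the median was -0.12. The ubiquitin ligase gene SIAH2 differed by -0.28 ± 0.21, the kinase gene ATM by -0.28 ± 0.20 and the F-box gene FBXO11 by -0.18 ± 0.18. Without siSOX4 sample 1 these were -0.16, -0.04 and -0.0019, and without siSOX4 sample 2 ATM was -0.52 and FBXO11 -0.36. RUNX2 was 0.34 without siSOX4 sample 2 and ETS1 0.02 without siSOX4 sample 1.

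On the epithelial side few genes were detected. Of 14 epithelial transcription and splicing factors 3 were tested, and GRHL2, OVOL1, OVOL2, ESRP1 and ESRP2 had no kept probe. KLF4, a factor that sustains epithelial genes including CDH1, had 9.62 and 10.37 in siSOX4 samples and 10.82 and 10.89 in siControl samples. Both siSOX4 samples were lower, sample 1 the more so, and the difference was -0.86 ± 0.24 (adjusted p = 0.225, limma). Its second kept probe gave -0.68, and the first -0.48 without siSOX4 sample 1. EHF, an epithelial ETS factor, differed by -0.36 ± 0.33 (0.16 without siSOX4 sample 2). GATA3, a luminal zinc finger factor detected on 1 array of each group, differed by 0.18 ± 0.24 (-0.07 without siControl sample 2). Of 20 junction and polarity genes 6 were tested, with 0 higher and 1 lower at an unadjusted p under 0.05, against 7.44% of all genes higher and 7.39% lower, and a median of -0.08. The 1 lower gene was CDS1, a CDP-diacylglycerol synthase gene of epithelial signatures, at -0.86 ± 0.23, detected on 1 of 2 siSOX4 arrays and at -0.45 without background correction. AP1M2, an adaptor of sorting to the basolateral membrane, differed by 0.47 ± 0.31 (-0.03 without siSOX4 sample 1). TJP1, the tight junction scaffold ZO-1, differed by -0.29 ± 0.17 (-0.15 without siSOX4 sample 2).

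The catenins link cadherins to actin, and 7 of the 8 listed genes were tested. At an unadjusted p under 0.05 there were 1 higher and 2 lower, against 7.44% of all genes higher and 7.39% lower, and the median was -0.10. JUP (plakoglobin, the catenin shared by adherens junctions and desmosomes) had 5.99 and 6.31 in siSOX4 samples and 7.41 and 7.20 in siControl samples. The groups were far apart, and the difference was -1.15 ± 0.22 (adjusted p = 0.137, limma), or -0.77 without background correction, while its second kept probe gave -0.36. CTNNAL1, an alpha-catenin-like gene, differed by 0.42 ± 0.17 (0.21 without siSOX4 sample 1) and VCL (vinculin) by -0.41 ± 0.12.

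Of 16 other cadherin genes listed, 4 were tested, and CDH11 had the largest difference. CDH11 (osteoblast cadherin, a mesenchymal cadherin) had log2 values of 7.15 and 6.71 in siSOX4 samples and 5.94 and 5.96 in siControl samples. Both siSOX4 samples were above both controls, with a difference of 0.98 ± 0.23 (adjusted p = 0.173, limma), or 0.61 without background correction. CDH17, the liver-intestine cadherin, differed by 0.07 ± 0.21 (-0.08 without siSOX4 sample 1). CDH10, a neural cadherin detected on 1 array of each group, differed by -0.03 ± 0.32 and lay between -0.48 and 0.44 when 1 array was left out.

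The other mesenchymal markers had differences of both signs. Of 28 listed 21 were tested, with 5 higher and 4 lower at an unadjusted p under 0.05, against 7.44% of all genes higher and 7.39% lower. Both siSOX4 values lay above both controls for 5 and below them for 5, against 22.7% and 25.1% of all genes, and the median was 0.01. The integrin alpha-5 gene ITGA5 had 7.44 and 9.30 in siSOX4 samples and 9.69 and 9.60 in siControl samples, a difference of -1.27 ± 0.50 that was -0.34 without siSOX4 sample 1 and -2.21 without siSOX4 sample 2. ENG (endoglin, a TGF-beta co-receptor) was detected on both siSOX4 arrays and on neither control. Its siSOX4 mean was at least 1.94-fold higher on the background-corrected scale (adjusted p = 0.278, limma). The bound is the siSOX4 mean against, on each control array, the higher of the lowest detected signal and the probe's own. It does not hold on other scales: the difference of ENG was 0.56 log2 units without background correction, and 0.51 without siSOX4 sample 2.

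Among intermediate filament genes and partners of vimentin, 9 of 12 were tested, with 1 higher and 0 lower at an unadjusted p under 0.05, against 7.44% of all genes higher and 7.39% lower, and a median of 0.27. LMNB2 (lamin B2) differed by 0.60 ± 0.25, LMNB1 by 0.46 ± 0.38 and the keratin gene KRT8 by 0.35 ± 0.19. Without siSOX4 sample 1 these were 0.20, -0.17 and 0.16. Of the TGF-beta genes that feed into EMT, 7 of 10 were tested, with 0 higher and 1 lower at an unadjusted p under 0.05, against 7.44% of all genes higher and 7.39% lower, and a median of 0.01. The receptor gene TGFBR2 differed by -0.54 ± 0.22, SMAD3 by -0.45 ± 0.25 and SMAD2 by 0.42 ± 0.19, the SMAD genes encoding signal carriers of the receptor. TGFBR2 was -0.21 and SMAD3 -0.07 without siSOX4 sample 2, and SMAD2 was 0.21 without background correction. The plot by list shows differences of both signs in each list. The medians depend on the probes kept: that of the epithelial factors was -0.18 without background correction, 0.0033 without the detection filter and -0.61 for probes detected on all 4 arrays, and that of the filament genes was 0.06 without the filter.

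**Figure D3:**
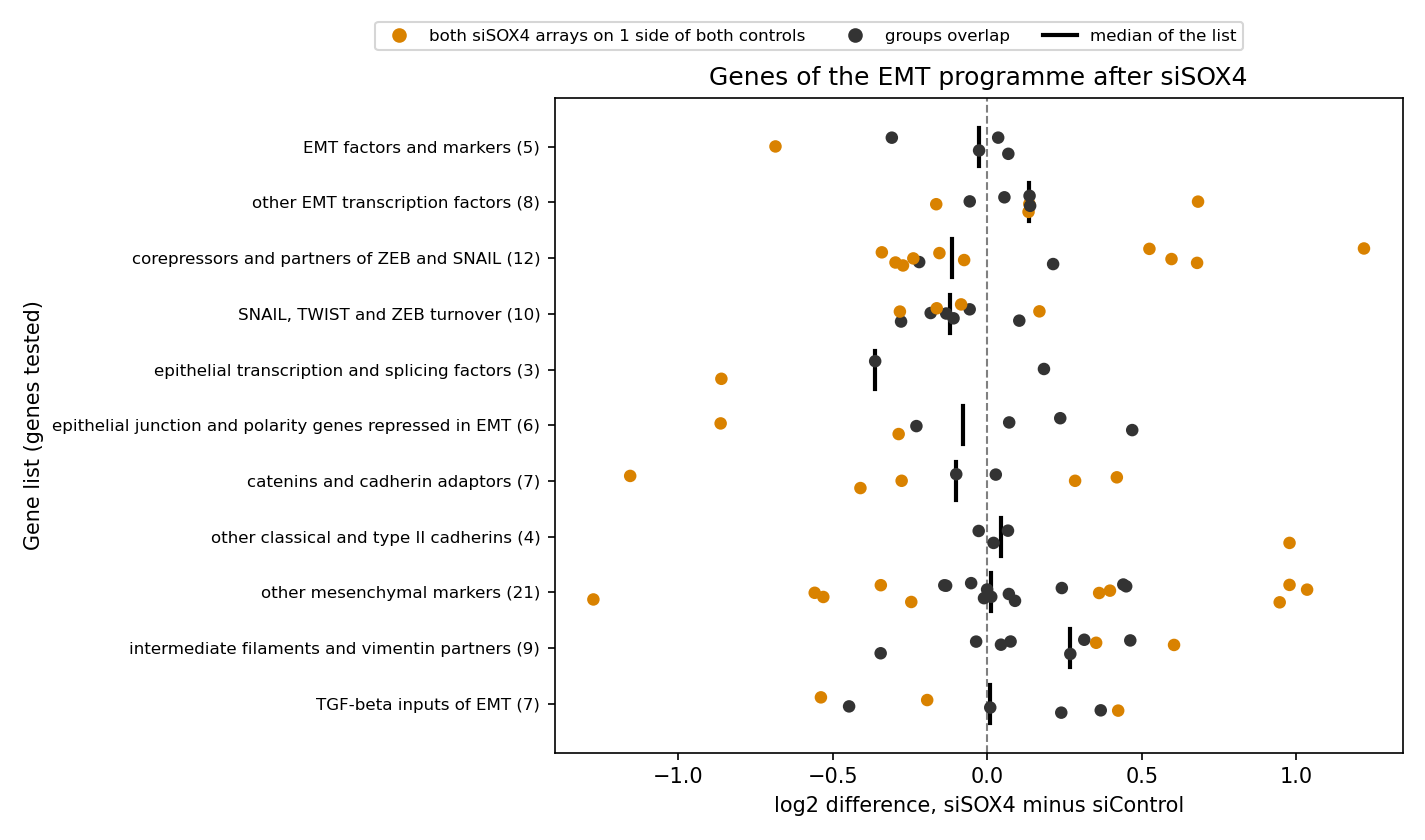
Each point is the log2 difference, siSOX4 minus siControl, of 1 tested gene (its kept probe of highest mean signal), in the list named at the left with its number of tested genes; orange points have both siSOX4 arrays on 1 side of both controls, dark points have overlapping groups, and the bar is the list's median. The cell type marker lists are not drawn. Among the lists drawn the medians run from -0.36 in the 3 epithelial factors to 0.27 in the 9 filament genes, and AJUBA lies furthest right at 1.22.

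How far single arrays carry these values can be read from the alternatives. ZEB1 was below 0 in 12 of 12 alternatives, between -0.80 and -0.37. PRRX1 was below 0 in 11 of 12, ZEB2 above 0 in 10 of 12, and the brighter VIM probe below 0 in 11 of 12. The detection filters, the replicate block and the fit without a trend use the same normalized values. They leave a probe's difference as it was and could not turn a sign. Leaving 1 array out could hardly turn that of ZEB1, since its groups did not overlap. The tallies therefore say less than their number of alternatives. Over all genes, 1333 (11.7%) passed without siSOX4 sample 1 and 2762 (24.3%) without siSOX4 sample 2, when the spread rests on the control pair and the lone siSOX4 sample is assumed to vary like it. The named list genes were picked for large differences in these data, so their passing cannot be set against these shares. ZEB1 was -0.80 and PRRX1 -0.72 without siSOX4 sample 2, and -0.57 and 0.11 without siSOX4 sample 1. With either control left out 0 genes passed, and 403 and 671 had an unadjusted p under 0.05 (limma).

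**Figure D4:**
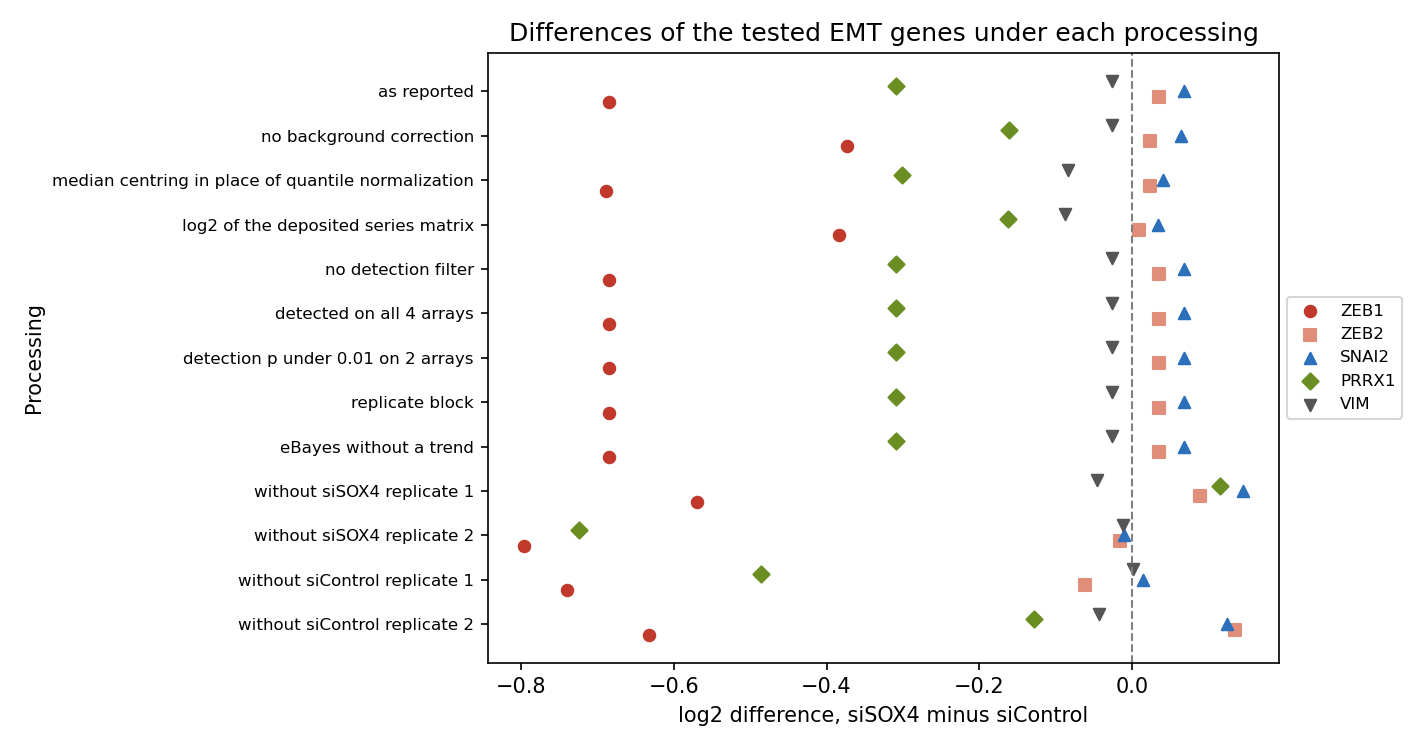
The log2 difference, siSOX4 minus siControl, of the 5 tested EMT genes as reported and under each of 12 alternatives, 1 line each, with 0 dashed. ZEB1 is left of 0 on every line and nearest to it without background correction (-0.37), while PRRX1 runs from -0.72 to 0.11 as 1 array is left out.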

How the data were processed

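Total RNA of 4 samples was labelled with biotin for Illumina expression BeadChips, per the labels' protocols. The deposited table holds 1 intensity per probe and array, with no background correction or scaling found in it, and a detection p-value beside each deposited intensity, per the file headers. Each detection column was tied to the array whose intensities order it. The deposited series matrix equals intensity over the array median (largest relative gap 1.08e-09). The authors' deposited ratio is mean siControl over mean siSOX4 intensity. The scanner software and settings are not given in the sources used here.

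From the intensities, neqc in limma 3.58.1 (R 4.3.3) corrected the background from the detection p-values (offset 16), normalized by quantiles and took log2. A probe was kept with detection p under 0.05 on at least 2 arrays, which left 20118. Moderated tests (lmFit, eBayes with trend) were adjusted by Benjamini-Hochberg over all of them; a gene is its kept probe of highest mean signal. An exact permutation of 2 against 2 cannot go below 0.333. The fit was tested on simulated data. Precision is limited by 4 arrays. Of the probes, 30113 had 1 symbol in the platform annotation, 8 several and 17202 none.

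The members and lists were chosen with earlier results of these data known. Named from each list are the 3 tested genes of largest absolute difference. The rule allowed 2 to 4; 4, 3 and 2 or 3 were tried with the values in view, and 3 was kept so that genes whose sign turned stay named. For ZEB1, the 3 genes nearest in pattern are named; the other VIM probe was not used for this, since the rule was applied to each gene's brightest kept probe. The motifs were also chosen with the sequences in view.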

Additional observations from a re-analysis of the deposited data

How the results depend on the processing

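At an adjusted p under 0.05 (limma) 0 genes passed, and 1689 had an unadjusted p under 0.05. The count was 1 with the deposited series matrix, 77 without the detection filter and 133 with the replicate block, and 0 to 2762 with 1 array left out (1333 without siSOX4 sample 1, 2762 without siSOX4 sample 2). For members it was 0 to 2 with 1 array left out (ZEB1 and PRRX1 without siSOX4 sample 2) and 0 otherwise. The labels do not say that a number pairs samples. Across the kept probes, the gap between the siSOX4 samples and that between the siControl samples correlated at 0.11. Under the block ZEB1 had an adjusted p of 0.181, and AJUBA (0.0402) and PDGFRB (0.0448) passed (limma). The sign turned for the SNAI2 probe ILMN_1655740 with median centring (-0.01) and the series matrix (-0.012), and for CDH10 without background correction (0.00011). With 1 array left out, ranges that cross 0 were -0.72 to 0.11 for PRRX1, -0.0615 to 0.13 for ZEB2, -0.0108 to 0.15 and -0.16 to 0.23 for the SNAI2 probes, -0.0463 to 0.0015 for the brighter VIM probe, -0.025 to 0.96 for AP1M2, -0.0818 to 0.21 for CDH17, -0.48 to 0.44 for CDH10, -0.17 to 1.08 for LMNB1, -0.91 to 0.16 for EHF, -0.0696 to 0.44 for GATA3, -0.75 to 0.0829 for ERBB2, -0.22 to 0.50 for CD14 and -0.73 to 0.21 for LYZ. The cause was not tested. With all 4 arrays, ZEB1's adjusted p ran from 0.181 to 0.353 over the alternatives (limma). Signals of ZEB1 and PRRX1 lay between 1.40 and 2.02 times the negative controls, and without background correction their differences were -0.37 and -0.16.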
